A study of Mus musculus with 6 samples.

Results

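The genes described here are 38 genes of the Myc family and of ribosome biogenesis, chosen by name from 53801 genes counted in each library. These genes and the other lists below were chosen with earlier results of these data known. Their counts beside the shares of all genes are therefore a description and not an independent test. They comprise the Myc family (Myc, Mycn and Mycl), 4 nucleolar phosphoproteins and helicases, 4 core proteins of small nucleolar ribonucleoproteins (snoRNPs), 13 factors of the small ribosomal subunit, 12 factors of the large subunit and 2 subunits of RNA polymerase I. The last 5 groups hold 35 genes and are called nucleolar genes below. All 38 were found by symbol, and 37 had enough counts to be tested among 16007 genes.

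Ribosomes are assembled in the nucleolus, where RNA polymerase I transcribes the long precursor of ribosomal RNA. Small nucleolar RNAs, each carried by a small set of core proteins, guide the chemical modification and cleavage of this precursor, and large assemblies of processing factors fold it into a small and a large subunit. Myc, a transcription factor that binds DNA with its partner Max at the E-box motif CACGTG, is well known for driving many of these genes in growing cells. Neural progenitor cells divide and grow, and need a steady supply of ribosomes.

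The libraries hold RNA of neural progenitor cells (NPCs) that were differentiated in culture from mouse embryonic stem cells of the strain cross BL/6J x CAST-EiJ. All libraries, the untreated ones included, carry a degron on SPEN, an RNA-binding repressor known for its part in silencing the X chromosome. The degron is a tag that has the protein broken down once the plant hormone auxin is added. The series compared NPCs before and after SPEN depletion. Cells were grown in N2B27 medium with EGF and FGF. The groups were 48 h of auxin at 500 uM, 24 h of auxin at 500 uM and untreated cells (0 h), each with 2 libraries, 1 of clone 31 and 1 of clone 30. Clones 31 and 30 are subclones of the NPCs, so each replicate is 1 clone. On treatment group alone, the p-values measure the spread between 2 clones. With the clone as a block, they measure how far the changes differ between the 2 clones. No cells without the degron were treated with auxin among the 6 libraries, so effects of auxin itself and of SPEN loss cannot be told apart.

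Total counts ran from 24603816 to 43008978 per library, and 3 counts corresponded to 0.0698 to 0.122 CPM. CPM are counts scaled to libraries of equal size, here with the trimmed mean of M-values (TMM), and each is a share of the RNA counted, so a lower value cannot tell less RNA per cell from fewer cells that make it. Spen RNA itself was at 259 and 200 CPM at 48 h in clones 31 and 30, 218 and 174 CPM at 24 h, and 116 and 92.4 CPM in untreated cells. The degron acts on the protein, so these RNA levels do not check its loss. Of 10 NPC markers, 9 were tested, with summed levels of 4523 to 6051 CPM, and Sox1 was under 1 CPM in all 6 libraries. Of 7 pluripotency genes, Pou5f1, Zfp42 and Dppa5a had 0 counts in every library and Tdgf1 was under 1 CPM. Nanog was at 1.0 to 3.65 CPM, Esrrb at 1.21 to 6.33 CPM and Klf4 at 8.39 to 26.3 CPM. At 48 h against untreated cells, edgeR with the clone as a block called 1 of these 3 higher and 0 lower (8.35% and 9.08% of all genes). It was Nanog (log2 1.21, adjusted p = 0.0296). Esrrb was at 1.21 and 2.97 CPM at 48 h in clones 31 and 30, against 4.60 and 4.17 CPM in untreated cells. DESeq2 with the block called 2 of the 3 higher and 1 lower (1597 and 1760 of all 16007 genes tested).

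Promoter sequence of some of these genes, 6 of them picked because they hold an E-box, is shown first, since the genes are described below beside the Myc family. RefSeq (GRCm38.p6) gave a promoter, 250 bases before to 50 bases after the start, for 31 of the 38 genes. Myc, Npm1, Fbl, Rrp12, Bop1, Rrs1 and Gnl2 had no promoter there and were not searched. The E-box CACGTG, which reads the same on both strands, was found in 7 of these 31 (22.6%), against 2187 of 27025 genes with a promoter (8.09%). It lay in 5 of 12 small-subunit promoters (Utp4, Utp18, Utp20, Wdr43 and Tsr1) and in 2 of 9 large-subunit promoters (Pes1 and Nop2). The other 4 groups had it in 0 of 2 (Myc family), 0 of 3 (phosphoproteins and helicase), 0 of 3 (snoRNP core) and 0 of 2 (RNA polymerase I). The median GC content of the promoters was 58.1% for these genes and 52.7% for all promoters. The stretches below run from 100 bases before to 30 bases after the start, 5′ to 3′ on the strand of the gene, with the E-box in capitals. The first 6 hold it, with its first base at -60 in Nop2, -20 in Utp18, +3 in Pes1, +16 in Utp4, +18 in Wdr43 and +25 in Tsr1, where the start is +1. Mycl and Gnl3 are shown without an E-box in the whole promoter, as the family member that was higher at 48 h and the nucleolar gene with the largest fall.
Nop2, chr6:125131783-125131912, forward strand: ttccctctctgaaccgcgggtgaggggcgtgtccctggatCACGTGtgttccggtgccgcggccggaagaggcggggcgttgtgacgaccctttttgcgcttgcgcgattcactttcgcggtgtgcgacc
Utp18, chr11:93885737-93885866, reverse strand: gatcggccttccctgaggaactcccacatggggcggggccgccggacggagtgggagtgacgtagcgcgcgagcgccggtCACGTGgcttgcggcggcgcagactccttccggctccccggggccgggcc
Pes1, chr11:3963875-3964004, forward strand: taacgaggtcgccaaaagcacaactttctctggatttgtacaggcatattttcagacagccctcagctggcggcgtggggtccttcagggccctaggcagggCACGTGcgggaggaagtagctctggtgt
Utp4, chr8:106893540-106893669, forward strand: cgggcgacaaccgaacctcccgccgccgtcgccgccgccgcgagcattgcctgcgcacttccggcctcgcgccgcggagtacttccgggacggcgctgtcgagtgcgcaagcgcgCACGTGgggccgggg
Wdr43, chr17:71616115-71616244, forward strand: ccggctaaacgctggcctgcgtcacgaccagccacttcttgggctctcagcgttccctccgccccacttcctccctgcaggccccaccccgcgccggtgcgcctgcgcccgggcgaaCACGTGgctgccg
Tsr1, chr11:74897980-74898109, forward strand: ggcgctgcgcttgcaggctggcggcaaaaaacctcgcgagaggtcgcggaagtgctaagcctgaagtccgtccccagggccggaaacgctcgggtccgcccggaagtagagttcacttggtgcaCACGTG
Mycl, chr4:122995831-122995960, forward strand: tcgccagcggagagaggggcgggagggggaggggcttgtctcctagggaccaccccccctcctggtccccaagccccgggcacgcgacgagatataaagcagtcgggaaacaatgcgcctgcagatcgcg
Gnl3, chr14:31019102-31019231, reverse strand: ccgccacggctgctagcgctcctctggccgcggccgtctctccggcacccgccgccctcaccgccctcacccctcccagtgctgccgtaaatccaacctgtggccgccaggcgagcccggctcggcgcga

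Within the Myc family, Myc was at 13.6 and 73.6 CPM at 48 h in clones 31 and 30, 208 and 186 CPM at 24 h, and 169 and 108 CPM in untreated cells. Myc (ENSMUSG00000022346, chr15:61985391-61990374 on GRCm38) encodes the best-known driver of ribosome biogenesis. Both 48 h libraries were below both untreated libraries, and both 24 h libraries were above them. The 48 h library of clone 31 kept 8.01% of the untreated level of its own clone, and that of clone 30 kept 68.5%. The log2 change of Myc at 48 h against untreated was -1.67 ± 0.75 (SE) with an adjusted p of 0.284 in edgeR on treatment group alone. With the clone as a block it was -1.85 ± 0.73 with an adjusted p of 0.125, so Myc did not pass the threshold of 0.05 in either fit. Against 24 h the change was -2.33 ± 0.72 with the block (adjusted p = 0.062 in edgeR, 0.0394 in limma voom and 0.0669 in DESeq2).

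Mycl, a paralog of Myc, was at 61.4 and 49.5 CPM at 48 h in clones 31 and 30, 13.7 and 18.9 CPM at 24 h, and 13.3 and 35.1 CPM in untreated cells. Both 48 h libraries were the highest of the 6. The gene (ENSMUSG00000028654, chr4:122995652-123002485) rose at 48 h against 24 h with the block, by 1.83 ± 0.38 on the log2 scale (adjusted p = 0.0241 in edgeR), and was not called on treatment group alone (1.76, adjusted p = 0.111). Against untreated cells its log2 change was 1.34 ± 0.38 with the block (adjusted p = 0.0622 in edgeR, 0.0554 in limma voom and 0.000612 in DESeq2). Mycn, the paralog best known from the embryonic nervous system, was at 2.18 and 1.0 CPM at 48 h in clones 31 and 30, 0.996 and 1.15 CPM at 24 h, and 1.03 and 1.44 CPM in untreated cells. The groups overlapped for Mycn, and its log2 change at 48 h was 0.36 ± 0.43 with the block (adjusted p = 0.583 in edgeR).

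Per length of exon, in CPM per kilobase (FPKM), Myc was the highest of the family in untreated cells, at 62.3 FPKM in clone 31 and 39.6 FPKM in clone 30. Mycl was at 3.28 and 8.70 FPKM and Mycn at 0.311 and 0.438 FPKM in those libraries. After 48 h the order of Myc and Mycl differed between the clones. In clone 31, Mycl was at 15.2 FPKM and Myc at 4.99 FPKM. In clone 30, Mycl was at 12.2 FPKM and Myc at 27.1 FPKM.

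**Figure D1:**
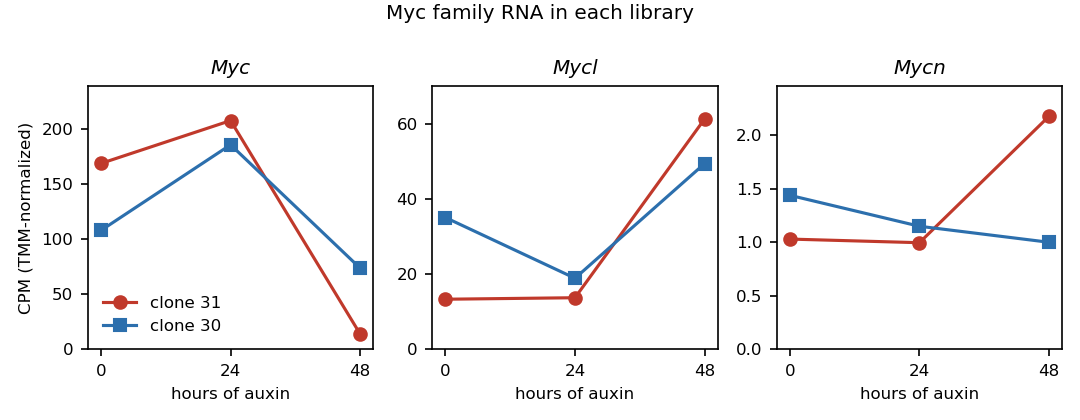
Levels of Myc, Mycl and Mycn in CPM (vertical axes, each from 0) against hours of auxin, with 1 point for each library and a line for each clone. Myc was at 13.6 CPM in clone 31 and 73.6 CPM in clone 30 at 48 h, and Mycl was highest in both clones at that time.

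At 48 h against untreated cells, all 34 nucleolar genes tested had a log2 change below 0, with a median of -1.08 with the clone as a block, against 0.02 over all 16007 genes. In both clones, all 34 were below their own untreated library, where 35.3% of all genes were, and the median change was -1.54 in clone 31 and -0.64 in clone 30. With the block, edgeR called 28 of the 37 tested genes lower and 0 higher, where it called 9.08% of all genes lower and 8.35% higher (17.4% in all). Upper-quartile scaling turned the 1336 higher and 1454 lower calls over all genes to 1524 higher and 1232 lower, and total counts to 1354 higher and 1231 lower, with 26 and 24 of the 37 genes lower and 0 higher. DESeq2 with the block called 33 lower and 1 higher, Mycl (21% of all genes in either direction). On treatment group alone, edgeR called 0 of 37 genes (and 0% of all genes). An unadjusted p under 0.05 was reached by 34 of the 37 in that fit, and by 3311 of all 16007 genes. DESeq2 on treatment group alone called 31 lower (10.4% of all genes in either direction). The summed level of the nucleolar genes was 2304 and 2550 CPM at 48 h in clones 31 and 30, 5043 and 4378 CPM at 24 h, and 4828 and 3788 CPM in untreated cells. This sum at 48 h was 47.7% of the untreated one in clone 31 and 67.3% in clone 30. Npm1 and Ncl weigh most in it, at 666 and 603 CPM at 48 h in clone 31. The group that holds both, the phosphoproteins and helicase, kept 61.8% in clone 31 and 69.4% in clone 30. The other nucleolar groups kept 31.7% to 40.4% in clone 31 and 56.6% to 71.2% in clone 30. Both 48 h libraries were below both untreated libraries for 35 of the 37 genes (all but Mycn and Mycl), against 25.7% of all genes. The 28 calls with the block became 0 when untreated clone 31 was left out (6 calls over all genes, against 2790), and 0 with only the 4 libraries of the compared groups (3 over all genes). They became 6 when the 24 h library of clone 31 or of clone 30 was left out (646 or 614 over all genes). The median log2 change of the 37 genes with the block was -1.32 without untreated clone 30 and -0.81 without untreated clone 31. Dropping either 48 h sample leaves no replicate at that time, and the spread then rests on 0 and 24 h alone. Calls from those fits cannot show how far 48 h libraries vary and are not given. Their median changes were -0.70 without clone 31 at 48 h and -1.48 without clone 30 at 48 h.

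**Figure D2:**
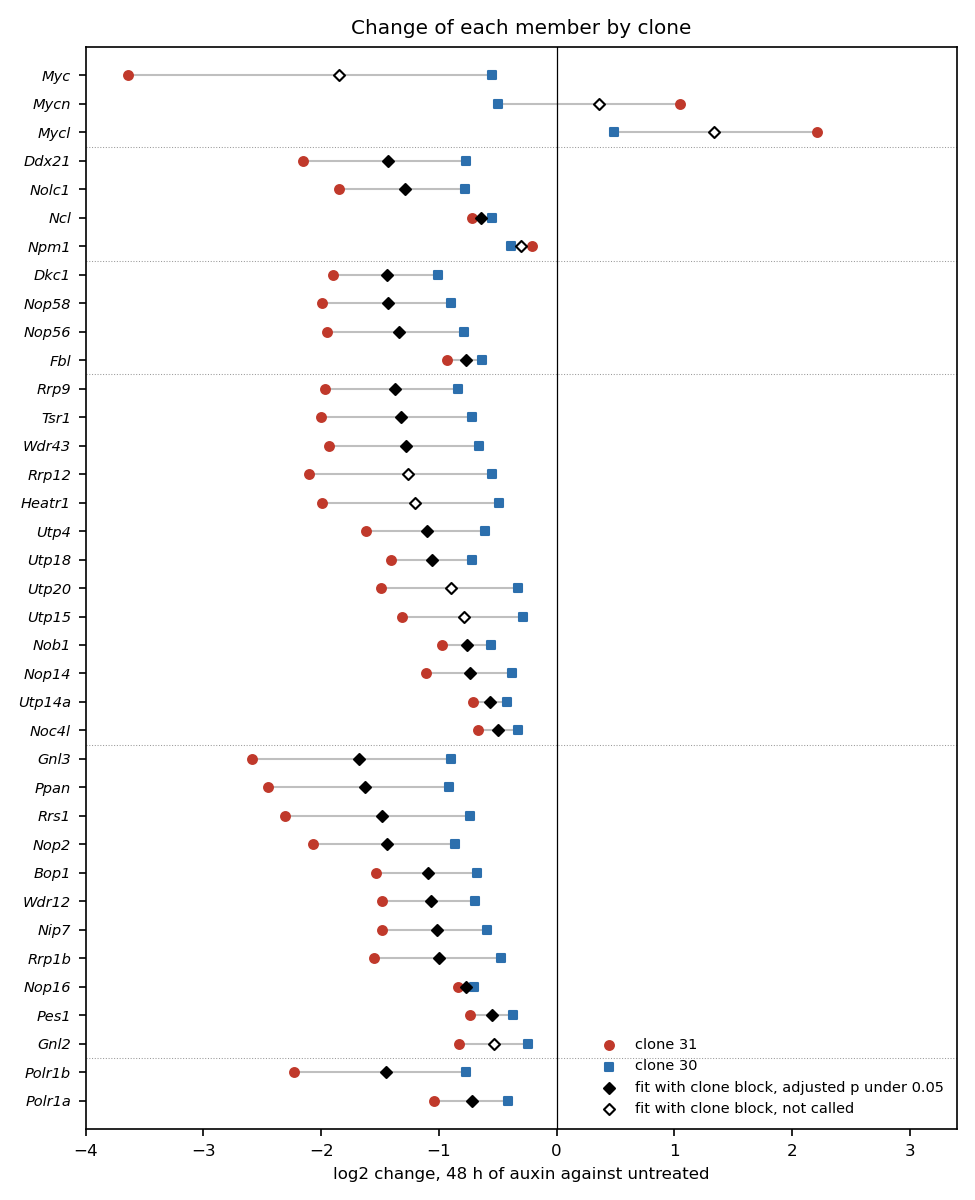
Log2 change of each of the 37 tested genes at 48 h of auxin against untreated cells (horizontal axis), by group from the Myc family at the top to RNA polymerase I at the bottom, with clone 31 and clone 30 as colored points and the blocked fit as diamonds. The 28 filled diamonds passed an adjusted p of 0.05, and all lie below 0.

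Among the nucleolar phosphoproteins and helicases, Ncl, Nolc1 and Ddx21 fell with the block (3 of 4), and Npm1 was not called. Ddx21, an RNA helicase of the nucleolus, was at 59.6 and 114 CPM at 48 h in clones 31 and 30, 298 and 272 CPM at 24 h, and 264 and 194 CPM in untreated cells. Both 48 h libraries lay below the 4 others, and the change against untreated cells was -1.43 ± 0.32 on the log2 scale (adjusted p = 0.0382 in edgeR with the block). Nolc1, which escorts snoRNPs through the nucleus, was at 60.4 and 91.2 CPM at 48 h, against 218 and 157 CPM in untreated cells of clones 31 and 30. Its log2 change was -1.29 ± 0.26. Ncl, nucleolin, was at 603 and 562 CPM at 48 h in clones 31 and 30, 986 and 867 CPM at 24 h, and 993 and 825 CPM in untreated cells, a log2 change of -0.64 ± 0.11 (adjusted p = 0.0261 in edgeR with the block). Npm1, an abundant chaperone of the nucleolus, was at 666 and 529 CPM at 48 h in clones 31 and 30 and 771 and 691 CPM in untreated cells. Its log2 change was -0.30 ± 0.11 (adjusted p = 0.101 in edgeR with the block), the smallest of the nucleolar genes. Npm1 and Ncl were also the nucleolar genes with the highest level per length in untreated cells, with means of 274 and 89.2 FPKM.

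All 4 core proteins of the snoRNPs fell with the block. Nop58, a core protein of the snoRNPs that guide methylation of ribosomal RNA, was at 37.7 and 61.4 CPM at 48 h in clones 31 and 30, 152 and 142 CPM at 24 h, and 150 and 115 CPM in untreated cells. The 48 h libraries did not overlap the others, and the log2 change against untreated cells was -1.43 ± 0.25 (adjusted p = 0.0276 in edgeR with the block). Nop56, its partner, was at 40.9 and 68.5 CPM at 48 h and 158 and 118 CPM in untreated cells of the same clones (log2 -1.34 ± 0.27). Dkc1, the pseudouridine synthase of the other class of snoRNPs, was at 34.6 and 44.8 CPM at 48 h, 131 and 102 CPM at 24 h, and 129 and 90.4 CPM in untreated cells of clones 31 and 30 (log2 -1.44 ± 0.22). Fbl, the methyltransferase fibrillarin, had the smallest change of the 4. It was at 63.9 and 65.1 CPM at 48 h in clones 31 and 30, against 121 and 100 CPM in untreated cells (log2 -0.77 ± 0.11, adjusted p = 0.024 in edgeR with the block). Of the exon bases of Nop56, 8.0% overlap other gene models on the same strand, so some of its reads may have been left uncounted.

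Of the 13 factors of the small subunit, 9 fell with the block and 4 were not called, and all 13 had a change below 0 in both clones. Rrp9, a protein of the snoRNP that directs the first cuts in the precursor, was at 12.6 and 19.6 CPM at 48 h in clones 31 and 30, 58.9 and 44.6 CPM at 24 h, and 49.7 and 35.0 CPM in untreated cells. It had the largest change of the group, -1.37 ± 0.28 on the log2 scale (adjusted p = 0.033 in edgeR with the block). Tsr1, a factor of late small-subunit precursors, was at 22.8 and 46.9 CPM at 48 h, 101 and 100 CPM at 24 h, and 91.3 and 77.3 CPM in untreated cells of clones 31 and 30 (log2 -1.32 ± 0.30). Wdr43, a protein of the early processing complex that binds the growing precursor, was at 28.9 and 46.7 CPM at 48 h, against 111 and 73.9 CPM in untreated cells of clones 31 and 30 (log2 -1.28 ± 0.29). For each of these genes, both 48 h libraries lay below the 4 others.

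The remaining small-subunit genes that fell were Utp4, Utp18, Nob1, Nop14, Utp14a and Noc4l, with log2 changes of -1.10 to -0.50. Utp4 and Utp18 belong to different subcomplexes of the small-subunit processome, and Nob1 is the nuclease that makes the final cut in the small-subunit RNA. Utp18 was at 20.8 and 27.2 CPM at 48 h in clones 31 and 30, against 55.3 and 44.7 CPM in untreated cells. Nob1 was at 23.1 and 25.5 CPM at 48 h, against 45.2 and 37.5 CPM in untreated cells of clones 31 and 30. Heatr1, Rrp12, Utp20 and Utp15 were not called, with adjusted p-values of 0.0636, 0.0673, 0.0649 and 0.0713 in edgeR with the block. Heatr1, a large scaffold of the early processing complex, had a log2 change of -1.99 in clone 31 and -0.49 in clone 30. Rrp12, which helps export of small-subunit precursors, was at 8.48 and 17.0 CPM at 48 h in clones 31 and 30, 46.3 and 35.6 CPM at 24 h, and 36.6 and 24.9 CPM in untreated cells. Of the exon bases of Tsr1, 32.3% lie opposite another gene, and of those of Utp14a 11.5%. The counting used strand, per the file headers.

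Among the 12 factors of the large subunit, 11 were tested, and 10 of them fell with the block. Gnl3, the GTPase nucleostemin, known from neural stem cells, was at 16.5 and 34.6 CPM at 48 h in clones 31 and 30, 103 and 82.8 CPM at 24 h, and 99.9 and 64.7 CPM in untreated cells. The 48 h libraries stood apart from the 4 others, and the change against untreated cells was -1.68 ± 0.39 on the log2 scale (adjusted p = 0.0412 in edgeR with the block), the largest of the nucleolar genes. Ppan, a protein of early large-subunit precursors, was at 11.9 and 23.6 CPM at 48 h, 69.8 and 61.0 CPM at 24 h, and 65.5 and 44.2 CPM in untreated cells of clones 31 and 30 (log2 -1.63 ± 0.36). Rrs1, which helps to build the small ribosomal RNA particle of the large subunit into its precursor, was at 26.7 and 46.3 CPM at 48 h, against 133 and 77.3 CPM in untreated cells of clones 31 and 30 (log2 -1.48 ± 0.37). Nop2, a methyltransferase of the large-subunit RNA, was at 26 and 45.2 CPM at 48 h, against 110 and 82.3 CPM in untreated cells of clones 31 and 30 (log2 -1.44 ± 0.28). For Ppan, Rrs1 and Nop2, too, both 48 h libraries were the lowest of the 6.

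Bop1, Pes1 and Wdr12 form 1 complex that is needed to mature the large-subunit RNA, and all 3 fell with the block. Bop1 was at 36.5 and 44.5 CPM at 48 h in clones 31 and 30, against 105 and 71.5 CPM in untreated cells (log2 -1.09 ± 0.21). Wdr12 was at 19.6 and 29.5 CPM at 48 h, against 54.9 and 47.5 CPM in untreated cells of clones 31 and 30 (log2 -1.07 ± 0.20). Pes1 was at 84.3 and 84.7 CPM at 48 h in clones 31 and 30, against 140 and 109 CPM in untreated cells, a smaller log2 change of -0.55 ± 0.11 (adjusted p = 0.0326 in edgeR with the block). Nip7, Rrp1b and Nop16 fell by 1.02, 1.0 and 0.77 on the log2 scale. Gnl2, a nucleolar GTPase related to Gnl3, was not called (log2 -0.53 ± 0.16, adjusted p = 0.0696 in edgeR with the block). DESeq2 with the block called it lower (adjusted p = 0.0262). Wdr74 was not tested. It had 0.0377 to 0.15 CPM in the 6 libraries, and 90.7% of its exon bases overlap another gene model on the same strand, so these counts say little of its level.

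Both RNA polymerase I subunits fell with the block. Polr1a and Polr1b form the catalytic core of the enzyme. Polr1b was at 12.4 and 21.0 CPM at 48 h in clones 31 and 30, 68.0 and 48.9 CPM at 24 h, and 58.4 and 35.8 CPM in untreated cells, a log2 change of -1.45 ± 0.35 (adjusted p = 0.0428 in edgeR with the block). Polr1a was at 64.7 and 80.3 CPM at 48 h, 140 and 130 CPM at 24 h, and 133 and 107 CPM in untreated cells of clones 31 and 30, a log2 change of -0.72 ± 0.16 (adjusted p = 0.0359 in edgeR with the block). For both genes the 2 libraries of 48 h were the lowest of the 6. Ribosomal RNA itself was not analysed here.

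**Figure D3:**
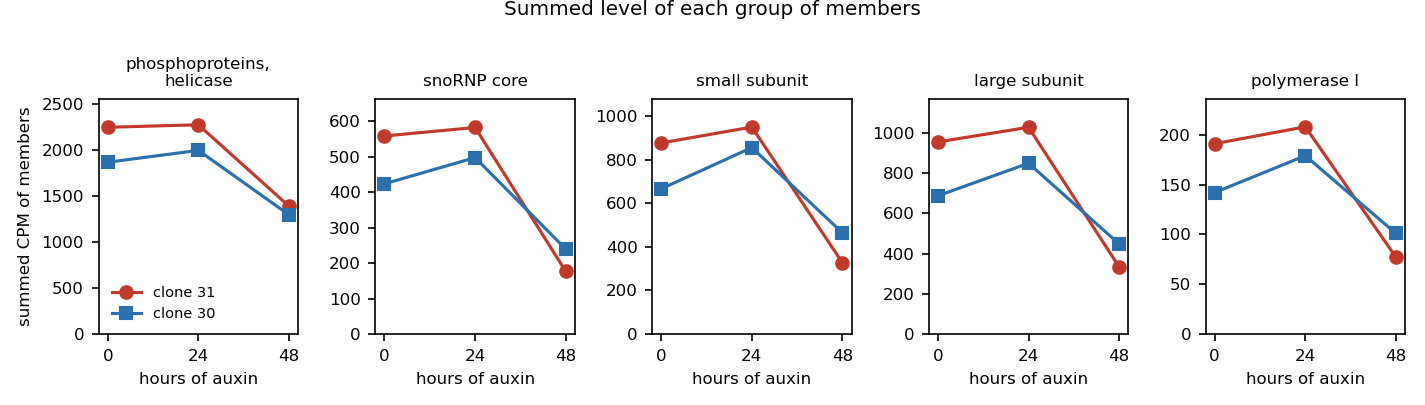
Summed CPM of the genes in each of the 5 nucleolar groups (vertical axes, each from 0) against hours of auxin, with 1 point for each library and a line for each clone. Clone 31 lies above clone 30 at 0 and 24 h in every panel, and in 4 of the 5 panels (all but the phosphoproteins and helicase) it lies below clone 30 at 48 h.

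At 48 h against 24 h, which shares the 48 h libraries with the comparison above, edgeR with the block called 33 of 37 genes lower and 1 higher (Mycl), where it called 13.9% of all genes lower and 12.3% higher (26.1% in all). Upper-quartile scaling turned the 1961 higher and 2224 lower calls over all genes to 2549 higher and 1726 lower, and total counts to 2123 higher and 1916 lower, with 32 of the 37 genes lower and 1 higher under each. On treatment group alone edgeR called 0 (0% of all genes). An unadjusted p under 0.05 was reached by 35 of the 37 in that fit, and by 3997 of all 16007 genes. DESeq2 on treatment group alone called 35 (15.8% of all genes). In both clones at once, 35 of 37 genes were lower at 48 h, where 38.6% of all genes were. The median change of the nucleolar genes was -1.34 with the block, -1.74 in clone 31 and -0.95 in clone 30, against 0.03 over all genes. All 13 small-subunit genes, 11 of 11 large-subunit genes, 4 of 4 snoRNP proteins and both polymerase subunits fell. Among the nucleolar genes, Ppan and Gnl3 had the largest falls, -1.88 ± 0.35 and -1.86 ± 0.39 on the log2 scale. Npm1 (-0.24 ± 0.11, adjusted p = 0.136 in edgeR with the block), Myc and Mycn were not called in that fit. Myc was called lower at 48 h against 24 h by DESeq2 on treatment group alone (adjusted p = 0.012) and by limma voom with the block (adjusted p = 0.0394), and not by DESeq2 with the block (adjusted p = 0.0669). Without the 24 h library of clone 31 or of clone 30, 0 of the 37 genes were called (3 or 0 over all genes).

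After 24 h of auxin, 0 of the 37 genes passed the threshold against untreated cells. In edgeR, 0 of 37 genes were called with or without the block (0% of all genes), and 0 had an unadjusted p under 0.05. Of all 16007 genes, 240 had such a p without the block and 988 with it. In the blocked fit of only the 4 compared libraries, 17 had an unadjusted p under 0.05. None of the 37 genes was called there, against 140 calls over all genes. How many of all genes had such an unadjusted p in that fit was not counted. With either 48 h library left out, the other is fitted exactly, so those fits rest on the same 4 libraries and are not given separately. With the block, the median of the 37 genes was 0.53 without untreated clone 31 and -0.04 without untreated clone 30. DESeq2 with the block also called 0, where it called 0.256% of all genes, and 0 on treatment group alone (0.0375% of all genes). The estimates lay mostly just above 0. Of 37 genes, 34 had a log2 change above 0, with a median of 0.18, against 0.01 over all genes. In both clones at once, 31 of 37 were higher at 24 h, where 33.9% of all genes were, and the median change was 0.09 in clone 31 and 0.31 in clone 30. Both 24 h libraries were above both untreated libraries for 7 genes (Myc, Ddx21, Utp14a, Utp20, Tsr1, Nob1 and Wdr12), against 13% of all genes. The largest nucleolar estimate was that of Rrp12, at 0.41 ± 0.35 on the log2 scale. The summed level of the nucleolar genes at 24 h was 104% of the untreated one in clone 31 and 116% in clone 30. With each of the 6 libraries left out in turn, 29 of the 37 estimates had the other sign in at least 1 fit.

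The changes at 48 h are also given within each clone. The log2 change against untreated cells was lower in clone 31 than in clone 30 for 34 of 37 genes (all but Mycn, Mycl and Npm1), where it was lower for 50.3% of all genes. For Myc it was -3.64 in clone 31 and -0.55 in clone 30, for Gnl3 -2.59 in clone 31 and -0.90 in clone 30, and for Rrp12 -2.10 in clone 31 and -0.55 in clone 30. The clones lay closer for Ncl (-0.72 in clone 31 and -0.55 in clone 30), Npm1 (-0.21 and -0.39) and Nop16 (-0.84 and -0.70). The 48 h library of clone 31 was the lowest of the 6 for 31 of 37 genes, against 24.8% of all genes. Each clone has 1 library at 48 h, so this difference has no replicate check. A model with a clone term for 48 h, chosen after the values were seen, takes its spread from the clone differences at 0 and 24 h alone (1 residual degree of freedom) and assumes that the single 48 h libraries vary like them. In edgeR it called 24 of 37 genes lower in clone 31, against 4.47% of all genes, and 0 when untreated and 24 h cells were taken as 1 level, so the clone difference at 48 h is given here as a description.

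Over all times together, clone 31 against clone 30 gave 0 calls among the 37 genes in edgeR, where 16.2% of all genes were called. DESeq2 also gave 0. An unadjusted p under 0.05 was reached by 3 of the 37 in edgeR, and by 4983 of all 15492 genes tested there. The median difference was 0.05 on the log2 scale. When the 48 h library of clone 30 was left out, 25 of the 37 genes were called, and when that of clone 31 was, 24 were. Calls over all genes were 4927 and 4978 in those fits, against 2503 with all libraries. The direction of the clone difference turned with time. In untreated cells the summed level of the nucleolar genes was 4828 CPM in clone 31 and 3788 CPM in clone 30, and at 48 h it was 2304 CPM in clone 31 and 2550 CPM in clone 30.

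Other genes of ribosome biogenesis, listed by function, were also lower at 48 h against untreated cells. With the block, edgeR called 24 of 38 other large-subunit factors lower, 14 of 27 other small-subunit factors, 7 of 12 other snoRNP and assembly proteins and 5 of 13 other components of the polymerase I machinery, and called 0 of these genes higher, where it called 9.08% of all genes lower and 8.35% higher. The median log2 changes of these 4 lists were -0.83, -0.65, -0.64 and -0.37. Noc2l, of the large subunit, was at 53.1 and 68.7 CPM at 48 h in clones 31 and 30, against 155 and 126 CPM in untreated cells (log2 -1.20 ± 0.17). Mphosph10, of the small-subunit processome, was at 23.7 and 27.7 CPM at 48 h, against 64.4 and 46.9 CPM in untreated cells of clones 31 and 30 (log2 -1.10 ± 0.17). Gar1, a partner of Dkc1, was at 12.2 and 18.7 CPM at 48 h, against 38.9 and 34.6 CPM in untreated cells of clones 31 and 30 (log2 -1.26 ± 0.20). Ubtf and Rrn3, factors that start transcription by RNA polymerase I, fell by 0.80 and 0.71 on the log2 scale with the block (adjusted p = 0.0452 and 0.0286 in edgeR). Of 9 host genes of small nucleolar RNAs tested, 1 was called, Snhg1 (log2 -0.81 ± 0.15, adjusted p = 0.0292 in edgeR with the block), and all 9 had a change below 0.

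Of 26 genes known as Myc targets outside the nucleolus, 20 fell in edgeR with the block and 0 rose (median -0.64), against the same 9.08% and 8.35% of all genes. Most, but not all, of the 26 act in polyamine, nucleotide and one-carbon metabolism, translation and protein folding. Srm, spermidine synthase, was at 30.4 and 31.7 CPM at 48 h in clones 31 and 30, against 117 and 75.3 CPM in untreated cells (log2 -1.59 ± 0.18, adjusted p = 0.0238 in edgeR with the block). Mthfd2, an enzyme of mitochondrial folate metabolism, was at 24.0 and 20.9 CPM at 48 h, against 105 and 51.4 CPM in untreated cells of clones 31 and 30 (log2 -1.70 ± 0.22). Ctps, which makes the nucleotide CTP, fell by 1.34 on the log2 scale, and Hspd1, a mitochondrial chaperone, by 0.72. The medians of this list were -0.72 in clone 31 and -0.54 in clone 30. Its summed level put the clones in the other order, at 74% of the untreated one in clone 31 and 64.9% in clone 30.

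Of 11 partners of the Myc network, edgeR with the block called 3 higher and 0 lower (median 0.13), where 8.35% and 9.08% of all genes were. The 3 were Mlxipl, Mxd1 and Mlxip. DESeq2 with the block called 4 higher and 1 lower (1597 and 1760 of all 16007 genes). Mxd1, which pairs with Max and opposes Myc at E-boxes, was at 31.8 and 32.4 CPM at 48 h in clones 31 and 30, 14.8 and 19.6 CPM at 24 h, and 14.1 and 22.5 CPM in untreated cells (log2 0.85 ± 0.17, adjusted p = 0.032 in edgeR with the block). Mlxipl, a glucose-responsive factor that pairs with Mlx, was at 3.20 and 2.36 CPM at 48 h, against 0.80 and 0.763 CPM in untreated cells of clones 31 and 30 (log2 1.84 ± 0.29). Mlx itself was not called by edgeR (log2 -0.49 ± 0.13, adjusted p = 0.0513 with the block) and was called lower by DESeq2 and limma voom with the block (adjusted p = 0.0232 and 0.0488). On treatment group alone edgeR called 0 genes of each of these lists, as it did of all genes.

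**Figure D4:**
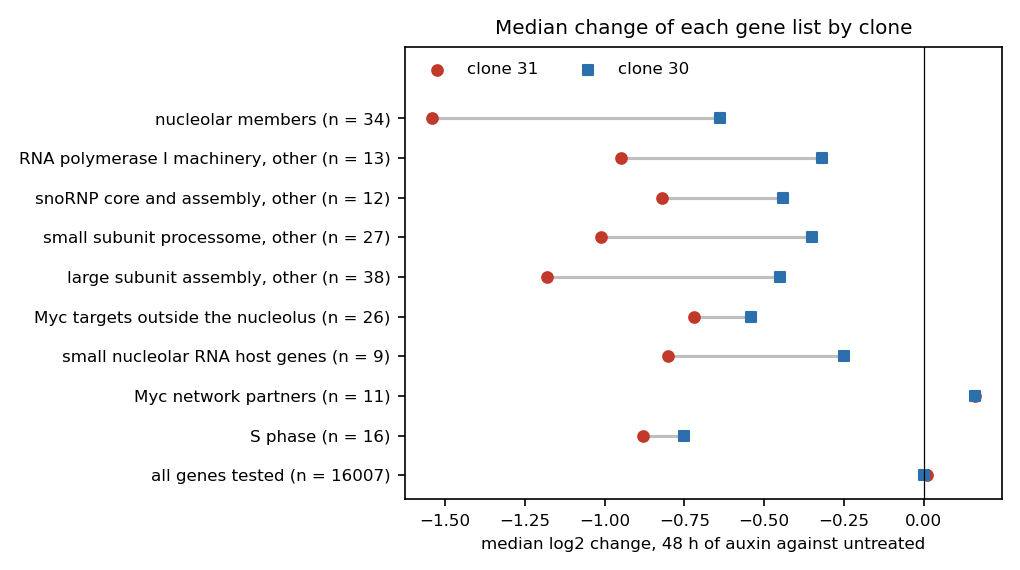
Median log2 change at 48 h of auxin against untreated cells (horizontal axis) of the 34 nucleolar genes, 8 other gene lists and all 16007 genes tested, in clone 31 and clone 30. The nucleolar genes had medians of -1.54 in clone 31 and -0.64 in clone 30, and the S phase list -0.88 in clone 31 and -0.75 in clone 30.

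Genes of other processes moved at the same time. Of 16 S phase genes, which are active while DNA is copied, 14 fell at 48 h in edgeR with the block and 0 rose (9.08% and 8.35% of all genes), with a median log2 change of -0.79. Ccne2, a cyclin of S phase entry, was at 21.4 and 18.2 CPM at 48 h in clones 31 and 30, against 61.7 and 46.6 CPM in untreated cells (log2 -1.45 ± 0.11, adjusted p = 0.0238 in edgeR with the block). The summed level of the S phase genes at 48 h was 58.9% of the untreated one in clone 31 and 62.9% in clone 30. Of 8 astrocyte markers 5 rose in edgeR with the block (8.35% of all genes), with sums of 2323 to 2522 CPM at 48 h and 1334 to 1935 CPM in untreated cells. Of 7 oligodendrocyte markers 5 were tested and 3 rose, with sums of 337 to 620 CPM at 48 h and 159 to 165 CPM in untreated cells, while Mog and Sox10 were at or near 0. The NPC marker sums were 5660 to 6051 CPM at 48 h and 4523 to 5312 CPM in untreated cells. Of the 9 tested, edgeR with the block called 2 higher and 0 lower (8.35% and 9.08% of all genes). DESeq2 with the block called 5 higher and 1 lower (1597 and 1760 of all 16007 genes). In neuron markers, 1 of 7 tested fell and 0 rose. Of 8 endoderm and mesenchyme markers, 6 were under 1 CPM in every library. The part of these changes in the levels of the ribosome biogenesis genes was not tested.

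The changes of nucleolar genes with and without an E-box in the promoters described above overlapped. The 7 with the E-box had log2 changes of -1.44 to -0.55 at 48 h against untreated cells with the block, with a median of -1.10. The 21 tested genes whose promoter lacks it had changes of -1.68 to -0.50, with a median of -1.07. The E-box was in 10 of 24 promoters of the Myc targets outside the nucleolus (41.7%), in 5 of 11 of the Myc network (45.5%) and in 0 of 12 of the S phase list. A match of 6 letters in this window is a description and does not show binding, and the binding of Myc was not measured here.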

How the data were processed

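Per the labels' protocols, only RNA scoring above 9 for integrity (RIN) was used for the TruSeq libraries, which were read from both ends over 100 bases. The authors deposited raw counts for each gene. Per the file headers these come from featureCounts 1.6.1, which counted pairs over exons on the reverse strand with Ensembl release 92 of GRCm38. The deposited exon length of each gene was used for FPKM. R 3.4.2 and DESeq2 are named in the submitters' processing notes. Symbols matched 53620 of 53801 genes, and mitochondrial counts were 0 in all libraries.

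Counts were tested with edgeR 4.0.16 (R 4.3.3, robust quasi-likelihood, TMM, filterByExpr, 2-sided, all 6 libraries, treatment group as the term) and adjusted by Benjamini-Hochberg over all genes at 0.05. Errors of log2 changes are SE from the F statistic, and n = 2 per group throughout. The sample titles give 1 subclone for each number, and the deviations of same-numbered libraries from the group means correlated at 0.80, 0.58 and 0.71, so the clone pairs them. The biological coefficient of variation was 0.271 without and 0.121 with the clone as a block, on 3 and 2 residual degrees of freedom. Changes within a clone are differences of log2 CPM with a prior count of 2. Alternatives were other scalings, filters, DESeq2 1.42.0, limma 3.58.1 voom, the 4 compared libraries and leaving out each library. The genes and lists were chosen with earlier results of these data known. Names follow a rule: all 38 genes and, of each other list, the 4 with the smallest p at 48 h with the block as candidates. Riok2, Snhg4 and Snhg7 were not analysed here. The scripts were tested on simulated data. Floors of 3 counts cover counting error only.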

Additional observations from a re-analysis of the deposited data

Results flagged for a closer look

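Against untreated cells, the clones moved in opposite directions in 5 cases among the tested genes. Each clone has 1 library per time, so these differences have no replicate check, and those at 24 h were not tested. At 24 h against untreated cells the log2 change of Mycl was 0.05 in clone 31 and -0.89 in clone 30. For Ncl it was -0.01 in clone 31 and 0.07 in clone 30, for Utp15 -0.07 in clone 31 and 0.25 in clone 30, and for Rrs1 -0.04 in clone 31 and 0.25 in clone 30. At 48 h against untreated cells that of Mycn was 1.05 in clone 31 and -0.50 in clone 30, from 58 and 31 counts at 48 h and 41 and 36 counts in untreated cells. Against 24 h, too, Mycn was at 1.09 in clone 31 and -0.19 in clone 30.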

How the results depend on the processing

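Direction at 48 h was kept by 36 of the 37 genes under every scaling, filter, tool, block and left-out library, all but Mycn, whose log2 change ran from -0.47 to 1.03 against untreated cells and from -0.28 to 1.22 against 24 h with 1 library left out. The calls depended on the fit. At 48 h against untreated cells, 0 genes called on treatment group alone became 3 with no filter on low counts, 31 in DESeq2 and 28 with the replicate block. At 48 h against 24 h, 0 became 19 with no filter, 35 in DESeq2 and 34 with the replicate block. With the replicate block and no filter, 15 (48 h against untreated) and 19 (48 h against 24 h) were called, and with only the 4 libraries of the first comparison 0 were. With 1 library left out, the blocked fits have 1 residual degree of freedom, and the calls did not hold in every fit. The median log2 change of the 37 genes then ran from -1.48 to -0.70 at 48 h against untreated cells. Against 24 h it ran from -1.76 to -0.90. Clone 31 against clone 30 gave 0 to 25 calls with 1 library left out. The model of the clone difference at 48 h, with 1 library per clone, gave 24 calls, and 0 with untreated and 24 h cells as 1 level. The causes of these moves were not tested. Upper-quartile scaling moved the median of all genes to 0.11 at 48 h against 24 h.

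At 24 h, where no gene was called, 29 estimates changed sign with a library left out. Their ranges over the left-out libraries, with and without the block, were Myc (-0.18 to 1.53), Mycn (-0.64 to 0.31), Mycl (-1.10 to 0.30), Npm1 (-0.15 to 0.04), Ncl (-0.10 to 0.17), Nolc1 (-0.06 to 0.55), Ddx21 (-0.06 to 0.77), Nop56 (-0.12 to 0.55), Nop58 (-0.16 to 0.52), Fbl (-0.04 to 0.27), Dkc1 (-0.15 to 0.37), Nop14 (-0.04 to 0.39), Noc4l (-0.07 to 0.36), Utp4 (-0.07 to 0.53), Utp15 (-0.22 to 0.43), Utp18 (-0.07 to 0.35), Wdr43 (-0.13 to 0.67), Heatr1 (-0.13 to 0.77), Tsr1 (-0.08 to 0.65), Pes1 (-0.02 to 0.35), Nop2 (-0.12 to 0.60), Nop16 (-0.04 to 0.32), Ppan (-0.15 to 0.77), Rrs1 (-0.31 to 0.59), Nip7 (-0.11 to 0.40), Gnl2 (-0.02 to 0.31), Gnl3 (-0.24 to 0.72), Polr1a (-0.02 to 0.39) and Polr1b (-0.04 to 0.77). Under upper-quartile scaling Ncl was at -0.01 with and without the block. Mycn had 31 to 58 counts per library.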
